A study of Mus musculus with 49 samples.

Results

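Cholesterol is made, held at a set level and exported by a small set of well-known genes, and 30 of these were followed here through neural differentiation of mouse embryonic stem cells and through exposure to 2 antidepressants. They were chosen by name, as the rows of the deposited count table that carry the symbols of mevalonate and sterol synthesis enzymes, of the SREBP2 control system, and of uptake, storage and efflux genes. The choice was made with earlier results of these data known, so shares of members set beside those of all genes are a description. All 30 symbols were found, among 52550 gene rows. The 18 enzymes were Acat2 and Hmgcs1 at the entry, Mvk, Pmvk, Mvd, Idi1 and Fdps on the way to farnesyl diphosphate, Fdft1, Sqle and Lss up to lanosterol, and Cyp51, Tm7sf2, Msmo1, Nsdhl, Hsd17b7, Ebp, Sc5d and Dhcr7 from lanosterol to cholesterol. The other 12 were the control genes Insig1, Insig2, Scap, Srebf2 and Rnf145, the intracellular transport and storage genes Stard4 and Soat1, and the efflux and uptake genes Abca1, Abcg1, Nr1h2, Nr1h3 and Mylip.

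The cells were ES-D3, an established mouse embryonic stem cell line, taken through the neural embryonic stem cell test, a culture assay in which stem cells form embryoid bodies and then neural tissue. PolyA RNA was sequenced from 49 cultures in 7 groups of 7 libraries. Control cultures, called untreated here, received neither drug and were taken on days 0, 7 and 13. Fluoxetine at 2 µM, a serotonin reuptake inhibitor, or venlafaxine at 90 µM, a serotonin and noradrenaline reuptake inhibitor, was present from day 3 of differentiation until day 7 or day 13. All 7 groups come from the 1 line, no genetic change was made, and the labels name no solvent and no batch. They describe 8 samples per condition, of which 7 are analysed here.

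Cholesterol synthesis starts from acetyl-CoA, runs through mevalonate and squalene to lanosterol, and ends in a series of steps that trim lanosterol to cholesterol. When sterol in the endoplasmic reticulum is low, the escort protein SCAP carries the transcription factor SREBP2 to the Golgi, where it is cut and released to switch on nearly all enzymes of the route; when sterol is high, INSIG proteins hold SCAP back. The nuclear receptors LXRα and LXRβ, encoded by Nr1h3 and Nr1h2, respond to oxysterols and switch on the exporters Abca1 and Abcg1, and the developing nervous system makes most of its cholesterol on site.

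Promoter sequences are shown because the members that moved together in these data are known as SREBP2 targets, and the letters make visible how much or how little of a shared element their promoters hold. RefSeq windows of build GRCm38.p6, from 250 bases before to 50 after a gene start, were matched for 25 of the 30 members by symbol. The windows were searched on both strands for the sterol regulatory element TCACCCCAC, for CCAAT, to which the SREBP2 partner NF-Y binds, and for GGGCGG, to which Sp1 binds. The exact sterol element stood in the window of Hmgcs1 alone among the 25 members, against 0.61% of 27025 genes. With 1 mismatch allowed it stood in 7 of 25 members (28%), Hmgcs1, Hsd17b7, Srebf2, Acat2, Nsdhl, Mylip and Nr1h3, and in 11.12% of all genes. CCAAT stood in 19 of 25 members (76%), among them 14 of the 15 enzymes with a window, and in 41.06% of all genes. GGGCGG stood in 22 of 25 members (88%) and 38.2% of all genes. No CCAAT overlapped a sterol element. A match of letters is a description of the window and not evidence of binding.

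The 250 bases upstream of the starts of Hmgcs1, the enzyme gene with the highest level, and of Cyp51, the enzyme gene with the largest response to venlafaxine, are printed 5′ to 3′ with the sterol element and each CCAAT, read on either strand (ATTGG on the reverse), in capitals. Hmgcs1 is from chr13:119690101-119690350, plus strand, and Cyp51 from chr5:4104698-4104947, minus strand.
Hmgcs1: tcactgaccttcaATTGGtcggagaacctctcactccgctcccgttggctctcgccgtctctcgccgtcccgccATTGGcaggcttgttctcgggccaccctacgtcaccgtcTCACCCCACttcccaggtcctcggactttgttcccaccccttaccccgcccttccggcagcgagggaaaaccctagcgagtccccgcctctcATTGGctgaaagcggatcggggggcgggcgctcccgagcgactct
Cyp51: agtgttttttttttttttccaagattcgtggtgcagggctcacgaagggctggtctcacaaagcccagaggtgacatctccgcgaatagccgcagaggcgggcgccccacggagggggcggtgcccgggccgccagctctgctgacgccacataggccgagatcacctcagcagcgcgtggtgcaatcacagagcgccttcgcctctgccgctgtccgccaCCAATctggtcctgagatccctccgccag
The Hmgcs1 stretch holds 1 sterol element and several CCAAT boxes. The Cyp51 stretch holds no sterol element within 1 mismatch and 1 CCAAT.

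The sterol elements of the other 6 members, each with 24 bases on either side, were compared with the Hmgcs1 element, with the element in capitals and positions counted from 1 at its 5′ end. They lie at chr1:169969290-169969346 (Hsd17b7, minus strand), chr15:82147083-82147139 (Srebf2, plus strand), chrX:72918292-72918348 (Nsdhl, plus strand), chr17:12960875-12960931 (Acat2, minus strand), chr13:45389590-45389646 (Mylip, plus strand) and chr2:91195216-91195272 (Nr1h3, minus strand, the element read on the reverse). The substitutions are C6T in Hsd17b7, C9T in Srebf2, C7A in Nsdhl, T1A in Acat2, C4G in Mylip and A3T in Nr1h3. Mylip and Nr1h3 are neither enzyme nor SREBP control genes.
Hsd17b7: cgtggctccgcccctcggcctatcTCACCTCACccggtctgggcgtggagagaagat
Srebf2: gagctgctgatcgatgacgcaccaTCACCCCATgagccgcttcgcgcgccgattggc
Nsdhl: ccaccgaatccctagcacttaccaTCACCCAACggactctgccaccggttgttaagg
Acat2: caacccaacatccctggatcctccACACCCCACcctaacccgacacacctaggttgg
Mylip: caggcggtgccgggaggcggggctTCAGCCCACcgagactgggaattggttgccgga
Nr1h3: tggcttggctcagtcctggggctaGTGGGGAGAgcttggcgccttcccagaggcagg

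Libraries held 14059811 to 29225775 counts, and mitochondrial transcripts took 1.3% to 2.01% of them. All 30 members passed the filter on low counts in every comparison, although Nr1h3 had 0.345 to 1.81 CPM (counts per 1000000 counts of the scaled library) over all untreated libraries. Differentiation went as the labels say. The summed level of 6 pluripotency markers fell from 4423 to 4655 CPM on day 0 to 81.4 to 98.7 CPM in untreated day 7 libraries, and that of 6 neural progenitor markers went from 57.3 to 66.3 CPM to 1181 to 1393 CPM. A few libraries stood apart for the enzymes. Untreated day 7 replicate 7 held the highest value of its group for 14 of 18 enzymes and replicate 5 the lowest for 9. Fluoxetine day 7 replicate 2 held the lowest value for 12, and on day 13 fluoxetine replicate 7 held the highest for 14 and replicate 8 the lowest for 12. Calls of members that changed without untreated day 7 replicate 7, or without fluoxetine day 13 replicates 7 and 8, are given beside the results they touch, and none changed without fluoxetine day 7 replicate 2. Untreated day 7 replicate 5 was left out only together with the other 5 libraries farthest from their groups' means. In bulk RNA fewer cells of a type and less RNA per cell cannot be told apart.

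In untreated cultures the route was built up between day 0 and day 7. Of the 30 members 23 rose and 6 fell, and of the 18 enzymes 16 rose and 2 fell, with a median log2 fold change of 0.86 for the enzymes, 0.64 for all members and 0.03 over all 16969 genes tested. This step changed most genes: 45.3% of all genes tested were called higher and 43.4% lower (edgeR quasi-likelihood test, Benjamini-Hochberg adjusted p under 0.05), so a call alone says little, while the share of members called higher was 23 of 30. The summed enzyme level went from a lowest, median and highest value of 1080, 1101 and 1144 CPM on day 0 to 2355, 2552 and 3112 CPM on day 7. In 21 of the 30 members every day 7 library lay above every day 0 library, in 5 every one lay below, and in 4 the groups overlapped. Separate ranges, here and below, were counted for members only. Without the share over all genes these counts do not set the members apart.

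Hmgcs1, the synthase that makes HMG-CoA, showed the largest rise. It had 254, 263 and 284 CPM on day 0 and 837, 964 and 1225 CPM on day 7 (lowest, median and highest of 7), a log2 fold change of 1.82 ± 0.0589 (SE; adjusted p = 2.2e-19). No day 7 library came near the day 0 range. Insig1, itself an SREBP2 target whose product restrains SCAP, went from 46.7, 48.8 and 53.3 CPM to 159, 175 and 204 CPM (1.79 ± 0.0495). Next came 2 enzymes that act after lanosterol. The keto-sterol reductase gene Hsd17b7 rose by 1.42 ± 0.0672, from 18.8, 20.8 and 21.9 CPM to 50.5, 56.1 and 66.6 CPM. The lanosterol demethylase gene Cyp51 rose by 1.35 ± 0.0524, from 73.4, 80.8 and 81.5 CPM to 192, 205 and 246 CPM. These 4 genes were separated between the days in all libraries. Post-lanosterol enzymes as a group had a median of 1.18 with 7 of 8 called higher, squalene and lanosterol enzymes 0.80 with 3 of 3, and the 5 enzymes between mevalonate and farnesyl diphosphate 0.43 with 4 of 5.

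The genes that fell in this step were mostly those of efflux. Nr1h3 fell from 1.07, 1.58 and 1.81 CPM to 0.374, 0.644 and 0.893 CPM (log2 fold change -1.28 ± 0.203, adjusted p = 2.57e-06). Abcg1, an exporter that loads sterol onto lipoprotein particles, fell from 9.34, 9.98 and 11.4 CPM to 3.21, 4.33 and 6.63 CPM (-1.18 ± 0.118). Abca1, the exporter that starts new particles, fell from 73.5, 81.7 and 89.3 CPM to 43.7, 49.8 and 57.1 CPM (-0.80 ± 0.0576). In each of the 3 the ranges did not overlap. Nr1h2 also fell (-0.50 ± 0.0331), and of the 5 efflux and uptake genes Mylip alone, a ubiquitin ligase gene that marks lipoprotein receptors for destruction, rose (0.43 ± 0.0881). Among the enzymes the 2 that fell were the phosphomevalonate kinase gene Pmvk (-0.55 ± 0.0421) and the sterol isomerase gene Ebp (-0.26 ± 0.058). The storage gene Soat1, whose product esterifies cholesterol, rose by 1.02 ± 0.0507, and the sterol carrier gene Stard4 by 0.72 ± 0.0496. Srebf2 rose by 0.58 ± 0.0403 and Scap by 0.31 ± 0.0392.

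**Figure D1:**
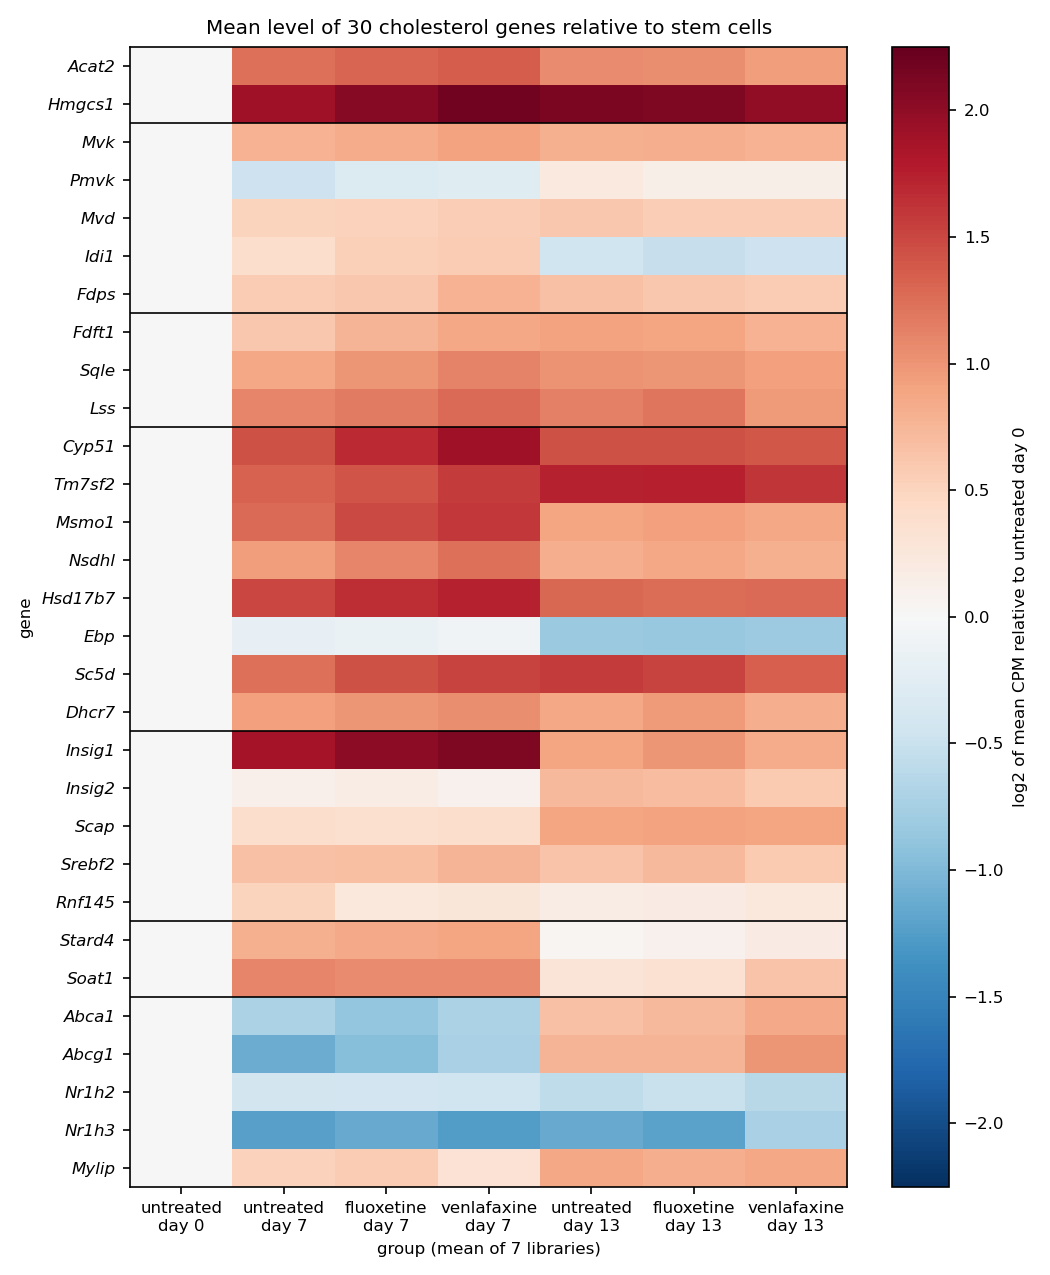
Mean level of the 30 genes in each of the 7 groups, as the log2 of mean CPM relative to untreated day 0 (colour), with genes in rows by role and groups of 7 libraries in columns. Hmgcs1 and Insig1 are the darkest red on day 7, and Abca1 and Abcg1 are blue on day 7 and red on day 13.

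Read per kilobase of exon, Hmgcs1 stood far above the other members in untreated day 7 libraries, with a mean of 217 CPM per kb. Acat2, which makes its substrate, followed at 70.6, Insig1 at 58.6, Srebf2 at 48.9 and Cyp51 at 48.1. At the other end stood Mylip at 2.51, Abcg1 at 0.65 and Nr1h3 at 0.257 CPM per kb. Fdps and Idi1 were low for enzymes of a linear route, at 3.04 and 6.37 CPM per kb. At least 95% identical stretches of other genes covered 16.7% of the longest Fdps transcript and 33.3% of that of Idi1, and no source used here says how multi-mapping reads were counted. Fdps also shares 26.71% of its exon bases with Gm43738 on the same strand, which had a mean count of 0.0. The part of shared sequence in these low levels was not tested.

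From day 7 to day 13 members moved in both directions. The enzymes had a median log2 fold change of 0.01, with single enzymes from -0.86 to 0.68. Of the 5 control genes 2 were called higher and 2 lower. Of the 30 members 11 rose and 11 fell (median 0.01), and of the 18 enzymes 6 rose and 6 fell. Of all genes 42.1% were called higher and 40.9% lower, so neither share of members stands out. The summed enzyme level was 2660, 2865 and 2962 CPM on day 13, inside the day 7 range. This sum leans on Hmgcs1, whose mean was 996 CPM of a mean sum of 2645 CPM on day 7. On day 13 it was 1157 of 2806 CPM, so the sum can hide falls of lower enzymes. The largest rises were those of both exporters: Abcg1 reached 15.5, 16.9 and 21.1 CPM (1.85 ± 0.114, adjusted p = 1.01e-13) and Abca1 119, 124 and 144 CPM (1.37 ± 0.0568, adjusted p = 3.99e-17). Every day 13 library lay above every day 7 library for both. Pmvk rose by 0.68 ± 0.0414 and Insig2, an INSIG gene that is not a strong SREBP2 target, by 0.60 ± 0.0448.

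The largest fall was that of Insig1, to 84.9, 91.2 and 96.1 CPM (-1.003 ± 0.0472, adjusted p = 4.65e-16). Idi1, the isomerase gene, fell by 0.86 ± 0.0694 on the log2 scale, Soat1 by 0.82 ± 0.0497 and Stard4 by 0.76 ± 0.0491. All 4 had separate ranges on the 2 days. Over both steps 9 members rose and then fell, 7 rose in both, 7 rose and then passed no test, 3 fell and then rose (Pmvk, Abca1 and Abcg1), 2 fell in both (Ebp and Nr1h2), Nr1h3 fell and then passed no test, and Insig2 rose only in the second step. The rise of Sqle, the squalene epoxidase gene, in the second step (0.12 ± 0.0462, adjusted p = 0.0167) was not called with no count filter, with only the groups compared or without the 6 libraries farthest from their groups' means. Without untreated day 7 replicate 7 the diphosphomevalonate decarboxylase gene Mvd was called higher as well (0.13 ± 0.0447, adjusted p = 0.0129).

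Markers of other cell types changed over the same steps in untreated cultures. The summed level of 8 endoderm markers went up and then down, from 266 to 302 CPM on day 0 to 529 to 697 CPM on day 7 and 84.1 to 117 CPM on day 13, with 6 called higher and 2 lower in the first step and 7 lower in the second. Insig1, Idi1, Soat1 and Stard4, which had the largest falls in the second step, also rose and then fell. Their day 13 means were above day 0 for Insig1, Soat1 and Stard4 and below it for Idi1. The means on days 0, 7 and 13 were 49.5, 181 and 91.2 CPM for Insig1 and 16.9, 22.3 and 12.4 CPM for Idi1. They were 66.9, 143 and 81.5 CPM for Soat1 and 74.4, 129 and 77.1 CPM for Stard4. The sum of 5 endothelial markers ran from 85.1 to 93.4, then 202 to 232 and then 57.5 to 137 CPM, with 3 higher and 2 lower and then 3 lower. Over 7 neuron markers the sums were 254 to 266, 759 to 1085 and 4137 to 5348 CPM, with 5 higher and 1 lower and then 7 higher. Over 7 astrocyte markers, 2 of them at 0 on day 0, they were 184 to 192, 189 to 235 and 629 to 693 CPM, with 3 higher and 3 lower and then 6 higher and 1 lower. Over 8 oligodendrocyte lineage markers they were 48.2 to 55.8, 241 to 306 and 393 to 839.7 CPM, with 5 higher and 1 lower and then 6 higher and 1 lower. Over 5 mesenchyme markers they were 7.89 to 11.4, 124 to 223 and 204 to 1009 CPM, with 3 higher and then 4 higher and 1 lower. The part of these cell types in the untreated course was not tested.

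**Figure D2:**
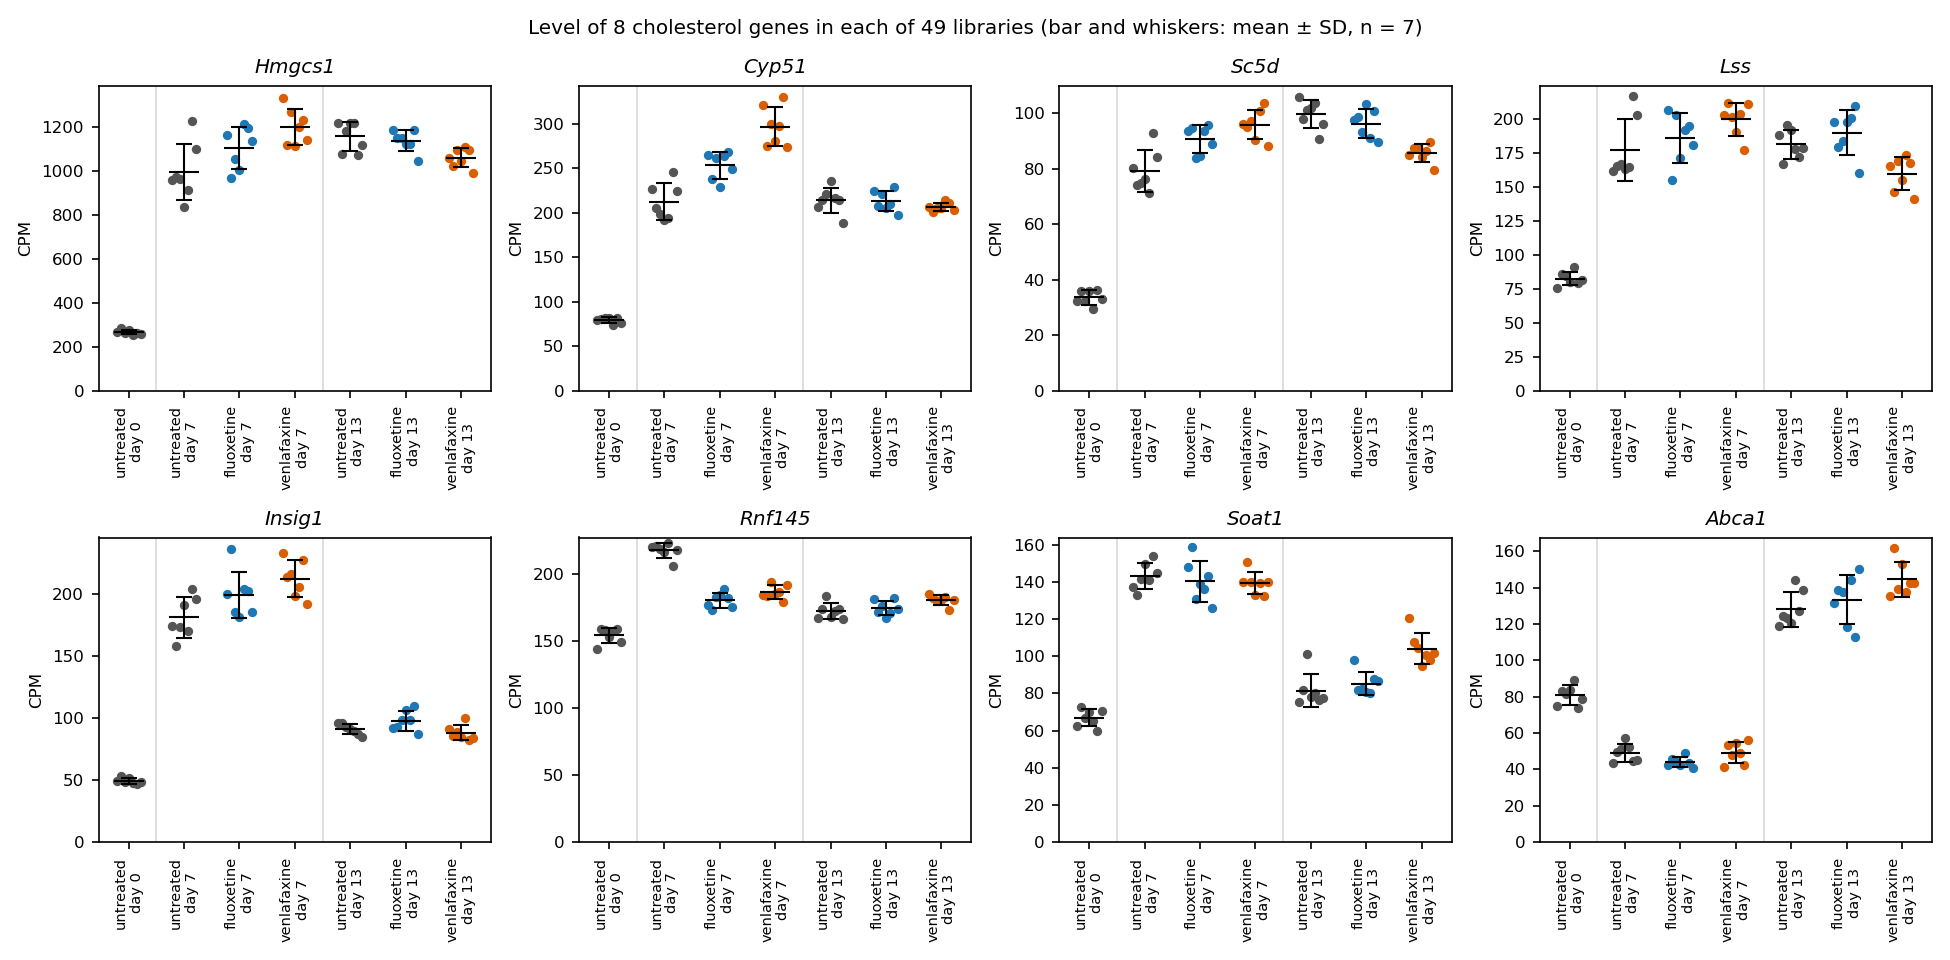
CPM of 8 members in each of the 49 libraries, 1 point per library, by group, with bars and whiskers for the mean and SD of 7 libraries. In venlafaxine on day 7 all 7 Cyp51 values lie above the untreated range, and Rnf145 lies below the untreated day 7 range under both drugs.

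Venlafaxine raised the level of sterol synthesis enzymes by day 7, after exposure from day 3. Of the 30 members 10 were called higher and 1 lower, against 1.9% and 1.94% of all 15601 genes tested. Of the 18 enzymes 9 were called higher and none lower, all 18 fold changes were above 0, and their median was 0.22 (all genes 0.00, with 7957 of 15601 above 0). All were small: no member changed by 1.5-fold. The enzymes called ran along the whole route, with Hmgcs1 at the entry, Pmvk in the mevalonate segment, Fdft1 and Sqle around squalene, and Cyp51, Msmo1, Nsdhl, Sc5d and Tm7sf2 after lanosterol. None of the 5 efflux and uptake genes and neither Stard4 nor Soat1 was called, by edgeR, DESeq2 or limma. In edgeR 1 of these 7 genes had an unadjusted p under 0.05 (Abcg1, 0.0324), as did 2693 of all 15601 genes tested.

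Cyp51 showed the largest rise, from 192, 205 and 246 CPM in untreated libraries to 274, 297 and 329 CPM in venlafaxine libraries. All 7 venlafaxine libraries lay above all untreated ones, with a log2 fold change of 0.49 ± 0.0561 (adjusted p = 6.16e-06). The squalene synthase gene Fdft1 went from 116, 118 and 129 CPM to 133, 141 and 158 CPM (0.26 ± 0.0439, adjusted p = 0.000757). The squalene epoxidase gene Sqle went from 182, 191 and 215 CPM to 220, 228 and 245 CPM (0.24 ± 0.0492, adjusted p = 0.00439). The sterol dehydrogenase gene Nsdhl went from 69, 75.4 and 85.1 CPM to 89.3, 92.3 and 102 CPM (0.30 ± 0.0532, adjusted p = 0.00109). Cyp51, Fdft1, Sqle and Nsdhl were the 4 enzymes whose ranges did not overlap.

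Hmgcs1 overlapped, since untreated replicate 7 reached 1225 CPM: venlafaxine libraries had 1114, 1198 and 1332 CPM, all above the untreated median of 964 CPM (0.27 ± 0.0678, adjusted p = 0.0197). For the sterol desaturase gene Sc5d the values were 71.2, 76.3 and 92.9 CPM in untreated and 88.3, 96 and 104 CPM in venlafaxine libraries (0.28 ± 0.0519, adjusted p = 0.00174). The methylsterol oxidase gene Msmo1 had 191, 202 and 260.4 CPM in untreated and 227, 256 and 328 CPM in venlafaxine libraries (0.32 ± 0.0852, adjusted p = 0.0349). In each of these 3 the 7 venlafaxine libraries lay above the untreated median. The Msmo1 call was lost with no count filter (adjusted p = 0.111), with the contrast's groups alone (0.0858) and without the 6 farthest libraries (0.0904). The sterol reductase gene Tm7sf2 (0.25 ± 0.0626, adjusted p = 0.0185) and Pmvk (0.19 ± 0.0464, adjusted p = 0.0158) rose as well. So did Insig1, from 159, 175 and 204 CPM to 192, 214 and 233 CPM (0.23 ± 0.0597, adjusted p = 0.0238). With the replicate number as a block Insig1 (adjusted p = 0.0738) and Pmvk (0.0524) lost their calls. Of the 9 other enzymes 8 had an unadjusted p under 0.05 without passing, with Hsd17b7 nearest to the threshold (0.23 ± 0.0675, adjusted p = 0.0543), and Mvd lay at 0.05 ± 0.0609. Without untreated replicate 7 the call also took in Hsd17b7 (0.25 ± 0.0697, adjusted p = 0.0443) and Lss (0.23 ± 0.061, adjusted p = 0.0381). Srebf2 (0.10 ± 0.0613), Scap (0.00 ± 0.0639) and Insig2 (-0.02 ± 0.0484) were not called.

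Some of these genes share sequence with a neighbour. Fdft1 shares 774 exon bases (18.31% of its exons) with Ctsb, a lysosomal protease gene on the opposite strand that was itself called higher (0.20 ± 0.0542, adjusted p = 0.0316). Whether counting used strand is not stated in any source used here, and the part of Ctsb reads in the Fdft1 result was not tested. Tm7sf2 shares 12.08% of its exon bases with Vps51 on the same strand, which was not called (-0.11 ± 0.0513). Cyp51 shares 3.76% with Akap9 on the opposite strand, at -0.02 ± 0.0429.

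**Figure D3:**
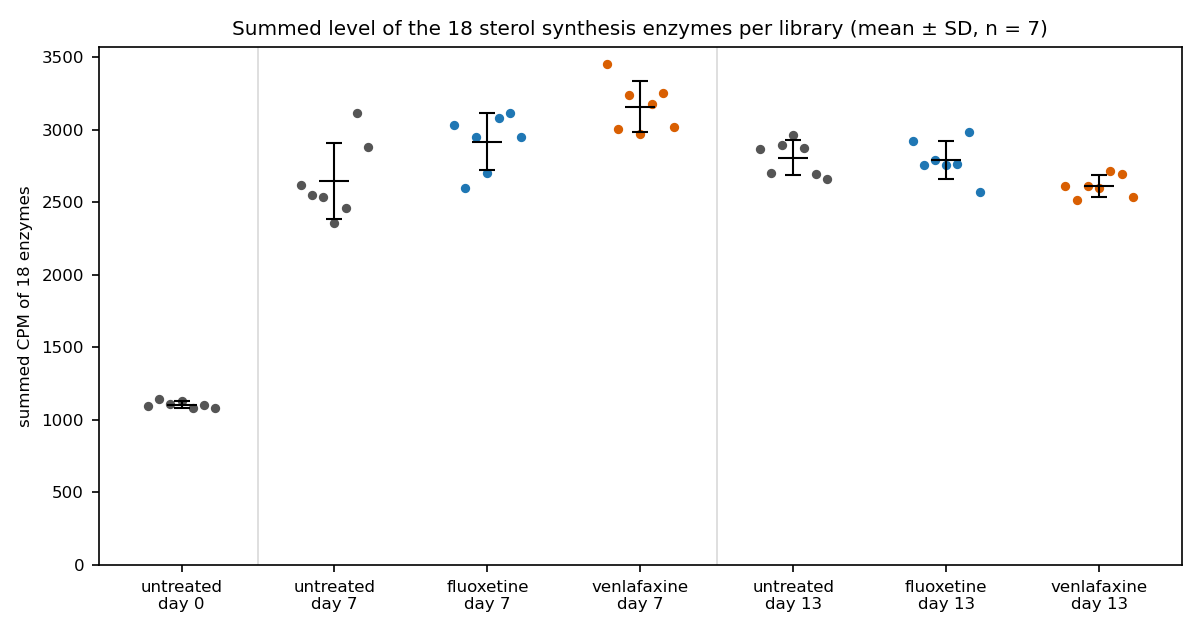
Summed CPM of the 18 synthesis enzymes in each library, by group, with mean and SD of 7 libraries. Venlafaxine libraries on day 7 run from 2971 to 3451 CPM, and untreated replicate 7, at 3112 CPM, is the 1 untreated day 7 library inside that range. Hmgcs1 alone has a mean of 1200 CPM within the venlafaxine day 7 mean sum of 3159 CPM.

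Rnf145, a membrane ubiquitin ligase gene that is switched on by LXR in mouse liver and curbs SCAP there, moved the other way from the enzymes, and did so under both drugs. Untreated day 7 libraries had 206, 219 and 224 CPM, fluoxetine libraries 173, 182 and 189 CPM and venlafaxine libraries 179, 186 and 194 CPM. Neither drug's range touched the untreated one. The log2 fold change was -0.27 ± 0.0282 under fluoxetine (adjusted p = 8.76e-06) and -0.22 ± 0.0282 under venlafaxine (adjusted p = 2.04e-05). Both comparisons share the 7 untreated libraries, so they are not independent.

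Rnf145 has RefSeq starts in 3 windows, none with CCAAT or the sterol element. Since Rnf145 and Abca1 are known LXR targets, the windows were also searched for the LXR type of element, 2 AGGTCA half-sites spaced by 4 bases, on both strands. With up to 3 mismatches in the 12 letters it stood in 8 of 25 members, Abca1 and Rnf145 among them, and in 24.49% of all genes, so such a match is common. The matches are shown with the half-sites in capitals, for Abca1 from chr4:53159927-53159982 (minus strand, the element read on the reverse) and for Rnf145 from chr11:44520177-44520232 (plus strand).
Abca1: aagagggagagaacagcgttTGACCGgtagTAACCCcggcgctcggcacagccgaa
Rnf145: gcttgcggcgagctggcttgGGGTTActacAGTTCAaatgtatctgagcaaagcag
With up to 2 mismatches only Dhcr7 of the 25 members held it, against 3.47% of all genes.

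Fluoxetine on day 7 gave the same sign for the enzymes but no enzyme call in the fit of that day's groups. Rnf145 was the 1 member called, lower, where 0.032% of all genes were called higher and 0.0192% lower, which is 5 and 3 genes. Of the 18 enzymes all fold changes lay above 0 with a median of 0.13. An unadjusted p under 0.05 was found for 9 of them, and for 1424 of all 15601 genes tested. None passed in edgeR as fitted on the 3 groups of the day, or in limma. Cyp51 passed in DESeq2 (0.25 ± 0.059, adjusted p = 0.0101), in edgeR with the replicate number as a block (0.28 ± 0.0433, adjusted p = 0.0219) and in edgeR on all 49 libraries (0.25 ± 0.0477, adjusted p = 0.0129). Cyp51 had 229, 261 and 268 CPM in fluoxetine libraries, against 192, 205 and 246 CPM in untreated ones (0.25 ± 0.0561 in edgeR on the groups of the day, adjusted p = 0.104). Without untreated replicate 7 both Cyp51 (0.29 ± 0.0537, adjusted p = 0.0332) and Sc5d (0.24 ± 0.0469, adjusted p = 0.0455) passed. Pmvk was the 1 enzyme whose ranges did not overlap, with 36.4, 37.9 and 40.2 CPM under fluoxetine and 30.9, 33.3 and 36.3 CPM in untreated libraries (0.16 ± 0.0461, adjusted p = 0.253).

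The 2 exposures were also compared directly, at 2 µM and 90 µM, so that dose and drug cannot be told apart. On day 7 no member was called in edgeR on the groups of the day or in limma. In that edgeR fit 0.103% of all genes were higher and 0.0449% lower in fluoxetine. An unadjusted p under 0.05 was found for 8 members, and for 1307 of all 15601 genes tested. All 18 enzymes were lower under fluoxetine, with a median of -0.10. Cyp51 differed by -0.23 ± 0.0559 (adjusted p = 0.0811), every fluoxetine library lay below every venlafaxine library, and it was called by DESeq2 (adjusted p = 0.0135) and by edgeR on all 49 libraries (-0.23 ± 0.0476, adjusted p = 0.0245). For Rnf145 the difference was -0.05 ± 0.0283 (adjusted p = 0.667).

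**Figure D4:**
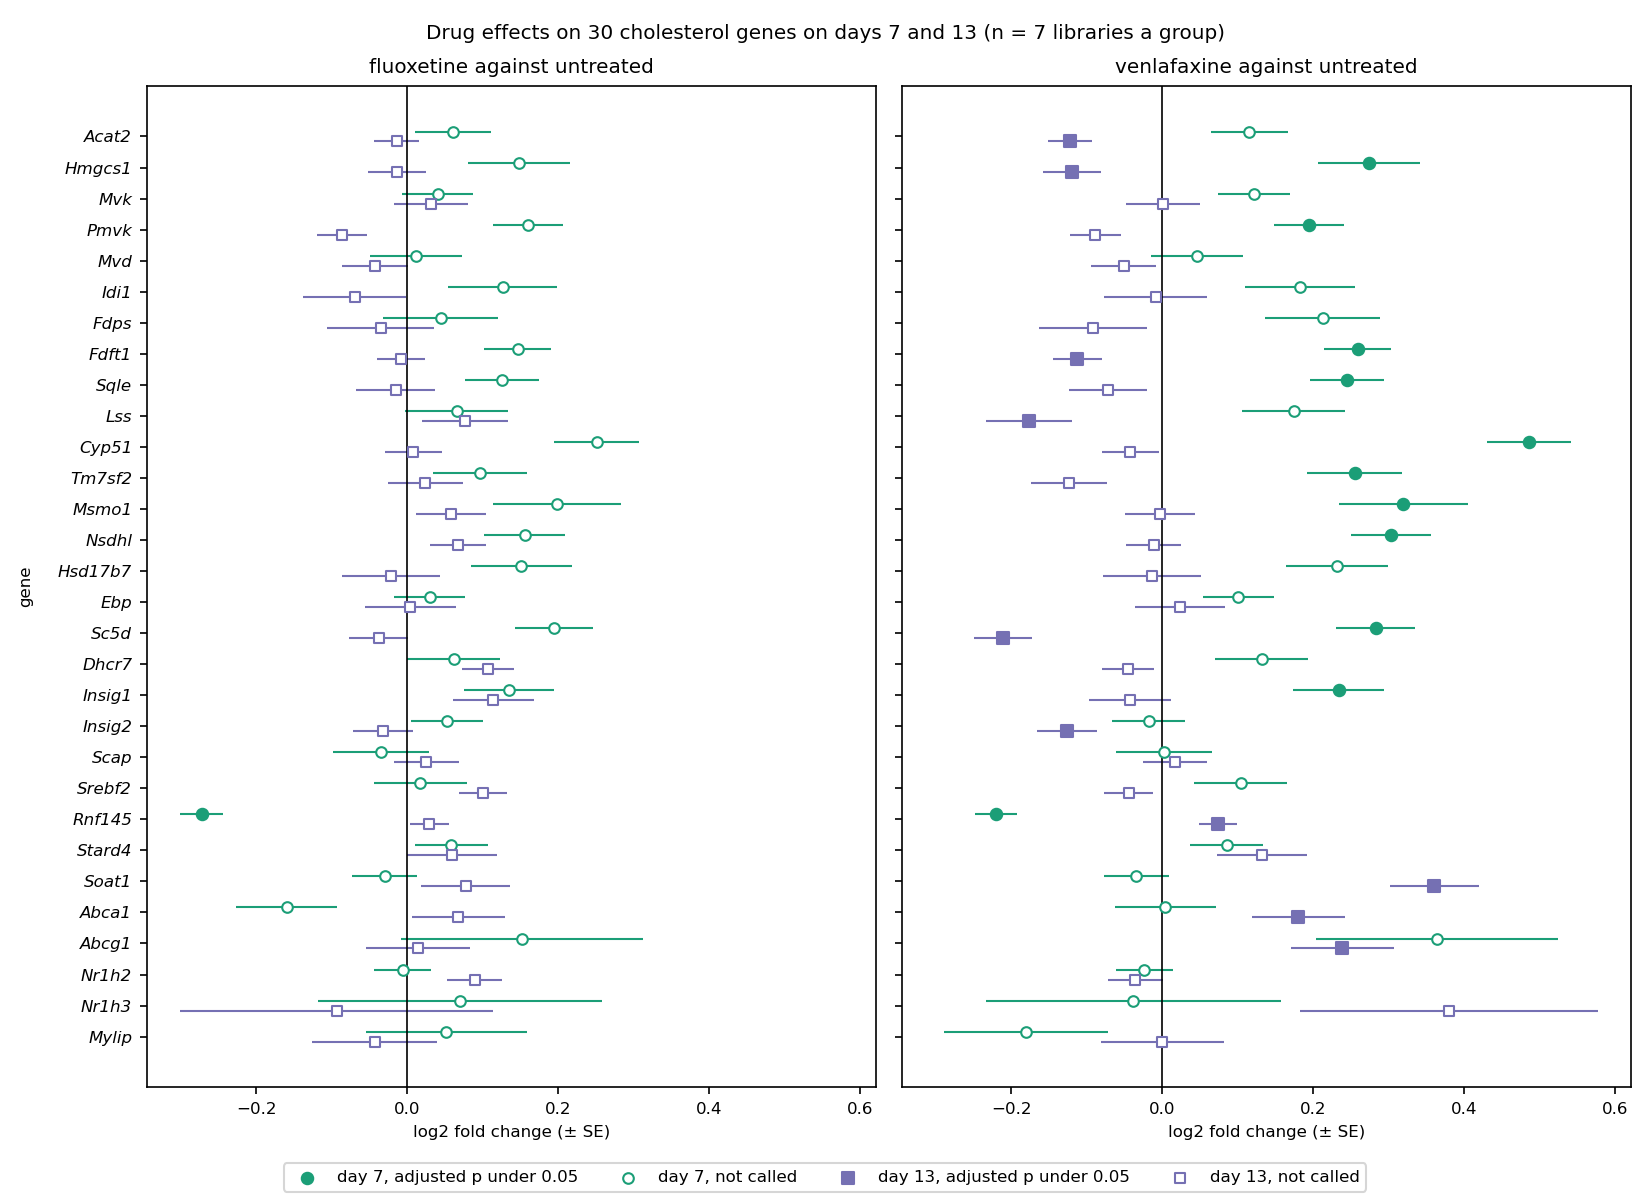
Log2 fold change with SE of the 30 members under fluoxetine (left) and venlafaxine (right) against the untreated group of the same day, with circles for day 7, squares for day 13 and filled symbols for an adjusted p under 0.05. Under venlafaxine the enzymes lie right of 0 on day 7 and at or left of 0 on day 13, while Soat1 and the exporters lie right of 0 on day 13.

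By day 13 sterol enzymes were no longer higher in venlafaxine cultures than in untreated ones. Of the transport, storage, efflux and uptake genes, Soat1, Abcg1 and Abca1 were called higher, and Stard4, Nr1h2, Nr1h3 and Mylip were not called. Of the 30 members 4 were called higher and 6 lower, against 11.6% and 11.3% of all 16397 genes tested, shares that do not set the members apart. None of the 18 enzymes was called higher by edgeR, DESeq2 or limma, and 5 were called lower, with a median of -0.06. The summed enzyme level was 2517, 2614 and 2713 CPM under venlafaxine and 2660, 2865 and 2962 CPM in untreated libraries. Sc5d fell furthest, with 79.3, 86.4 and 89.6 CPM against 90.9, 101 and 106 CPM, and it was the 1 member with separate ranges (-0.21 ± 0.0387, adjusted p = 0.0044). The lanosterol synthase gene Lss followed (-0.18 ± 0.0569, adjusted p = 0.0335), with 141, 166 and 174 CPM against 167, 178 and 195 CPM. Acat2 (-0.12 ± 0.0295, adjusted p = 0.0126), Hmgcs1 (-0.12 ± 0.0383, adjusted p = 0.0329) and Fdft1 (-0.11 ± 0.0324, adjusted p = 0.0222) fell by less, as did Insig2 (-0.13 ± 0.0396, adjusted p = 0.0297). In all 6 the 7 venlafaxine libraries lay below the untreated median. The Acat2 counts carry a reservation, since 65.6% of its longest transcript is at least 95% identical to other genes, chiefly Acat3.

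Among the storage and efflux genes Soat1 had 95, 102 and 121 CPM under venlafaxine, against 75.2, 78.1 and 101 CPM in untreated libraries (0.36 ± 0.0586, adjusted p = 0.00195). Apart from untreated replicate 4, at 101 CPM, no untreated library reached the venlafaxine range. Abcg1 had 17.3, 21.4 and 23 CPM against 15.5, 16.9 and 21.1 CPM (0.24 ± 0.0687, adjusted p = 0.0226), and Abca1 136, 142 and 162 CPM against 119, 124 and 144 CPM (0.18 ± 0.0615, adjusted p = 0.0413). For Soat1, Abcg1 and Abca1 the 7 venlafaxine libraries lay above the untreated median while the ranges of the groups overlapped. Rnf145 was higher by a small amount (0.07 ± 0.0252, adjusted p = 0.0409). Nr1h3 was not called (0.38 ± 0.198, adjusted p = 0.161). Most of the 10 calls sat near the threshold. With the replicate number as a block 7 of them were lost: Lss (adjusted p = 0.0501), Acat2 (0.0541), Abca1 (0.0573), Hmgcs1 (0.0631), Fdft1 (0.0726), Insig2 (0.101) and Rnf145 (0.147). With no count filter Abca1, Rnf145, Hmgcs1, Fdft1 and Insig2 lost theirs. Abcg1 (0.0902) and Hmgcs1 (0.0681) lost theirs in the fit of all 49 libraries, Hmgcs1 (0.073) and Rnf145 (0.0781) with the contrast's groups alone, and Abca1 without the 6 farthest libraries (0.0558). Sc5d and Soat1 kept theirs under every alternative run.

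Fluoxetine changed no member on day 13 in edgeR or limma, with 0.061% of all genes called higher and 0.0549% lower. Of the 30 members 5 had an unadjusted p under 0.05, as did 2312 of all 16397 genes tested. DESeq2 called Srebf2 (0.10 ± 0.0307, adjusted p = 0.0415). Enzyme fold changes ran on both sides of 0, with 8 of 18 above it, and all 30 ranges overlapped with those of untreated libraries. Against venlafaxine on the same day, fluoxetine libraries were higher in 7 members and lower in 2, where 5.14% of all genes were higher and 6.97% lower. Lss (0.25 ± 0.057, adjusted p = 0.0142), Sc5d (0.17 ± 0.0388, adjusted p = 0.0142), the last-step reductase gene Dhcr7 (0.15 ± 0.0349, adjusted p = 0.0148) and Srebf2 (0.15 ± 0.0322, adjusted p = 0.0139) led the first set, which also held Nr1h2 (0.12 ± 0.0359), Acat2 (0.11 ± 0.0295) and Fdft1 (0.10 ± 0.0324). Soat1 (-0.28 ± 0.0586, adjusted p = 0.0105) and Abcg1 (-0.22 ± 0.0688, adjusted p = 0.0394) were lower. None of the 7 higher calls was kept without the 6 farthest libraries, where adjusted p-values ran up to 0.141 (Fdft1), and Soat1 kept its call. Without fluoxetine replicates 7 and 8, Fdft1 (adjusted p = 0.0831), Nr1h2 (0.0849) and Abcg1 (0.1) lost their calls, which left 5 members higher and 1 lower. With the replicate number as a block Soat1 (0.0586), Abcg1 (0.056), Acat2 (0.0728), Nr1h2 (0.109) and Fdft1 (0.113) lost theirs.

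Whether venlafaxine acted differently on the 2 days was tested directly, as the change of its effect from day 7 to day 13 in all 42 libraries of those days. The effect was lower on day 13 for 12 members and higher for 2, against 7.53% of genes higher and 4.89% lower among 16964. Of the 18 enzymes 11 were called lower, none higher, and all 18 values lay below 0, with a median of -0.31 (all genes 0.01). Cyp51 (-0.52 ± 0.0726, adjusted p = 1.68e-05) and Sc5d (-0.49 ± 0.0674, adjusted p = 1.64e-05) changed most, followed by Hmgcs1 (-0.39 ± 0.0823, adjusted p = 0.00231), Fdft1 (-0.37 ± 0.0567, adjusted p = 6.41e-05), Tm7sf2 (-0.37 ± 0.0838, adjusted p = 0.00358) and Lss (-0.35 ± 0.0929, adjusted p = 0.0128). All 10 members called higher under venlafaxine on day 7 were among the 12, and 3 of them, Hmgcs1, Fdft1 and Sc5d, were called lower on day 13 itself. The effect was higher on day 13 for Soat1 (0.40 ± 0.0736, adjusted p = 0.000684) and Rnf145 (0.30 ± 0.0354, adjusted p = 1.25e-06). Without untreated day 7 replicate 7 the farnesyl diphosphate synthase gene Fdps was called lower too (-0.34 ± 0.107, adjusted p = 0.0335).

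For fluoxetine the same test called Rnf145 alone (0.31 ± 0.0354, adjusted p = 1.34e-06), where 0.212% of genes were higher and 0.0648% lower. By day 13 Rnf145 had come down in untreated cultures to 167, 173 and 184 CPM, and fluoxetine libraries had 167, 174 and 182 CPM. The level under either drug on day 7 lay close to the level that untreated cultures reached later. None of the 18 enzymes was called, and 4 had an unadjusted p under 0.05, as did 2200 of all 16964 genes tested. Pmvk was called lower in limma (-0.24 ± 0.057, adjusted p = 0.0487), in edgeR with the filter of 1 CPM in 7 libraries (-0.25 ± 0.0568, adjusted p = 0.0424) and in edgeR on all 49 libraries (-0.26 ± 0.0557, adjusted p = 0.0286). DESeq2 called Pmvk, Cyp51 and Sc5d lower.

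Other genes of lipid supply, which are no members, were read from lists. Fluoxetine against untreated gave no call in any of these lists on either day in edgeR, with 3 of 12 fatty acid genes on day 7 and 5 on day 13 at an unadjusted p under 0.05. Among 12 fatty acid synthesis genes venlafaxine raised 4 on day 7 and 5 on day 13 and lowered none. Srebf1, which encodes the SREBP form that drives fatty acid synthesis, was higher on both days (0.24 ± 0.0508 and 0.30 ± 0.0513), as were the desaturase genes Scd1 and Scd2 (0.25 ± 0.0596 on day 7 for Scd2, 0.44 ± 0.0954 on day 13 for Scd1). On day 13 the malic enzyme gene Me1 was higher too (0.47 ± 0.0798). Of 13 other uptake and transport genes 1 was higher on day 7, the lipoprotein receptor gene Lrp8 (0.25 ± 0.0594, adjusted p = 0.0168). On day 13, 3 were higher, among them the lipoprotein receptor gene Scarb1 (0.28 ± 0.084), and Gramd1a was lower (-0.24 ± 0.0756). Of 10 other oxysterol and efflux genes tested, Lpcat3 was higher on day 7 (0.16 ± 0.0343). On day 13, 2 were higher and 2 lower, with the oxysterol-forming hydroxylase gene Cyp27a1 at 0.71 ± 0.152, the neuronal cholesterol hydroxylase gene Cyp46a1 at -0.34 ± 0.0838 and the transporter gene Abca5 at -0.28 ± 0.0826. Of 9 genes of the isoprenoid branch, 8 other SREBP control genes and 7 sterol accessory genes tested, none was called on day 7 in edgeR, with 3, 2 and 2 at an unadjusted p under 0.05. On day 13, Ggps1 (-0.17 ± 0.0484), Ube2g2 (-0.08 ± 0.0294) and Pgrmc1 (-0.20 ± 0.0479) were lower and Tmem97 was higher (0.30 ± 0.0924).

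Cell type markers moved with venlafaxine on day 13. Summed over 7 astrocyte markers, venlafaxine libraries had 689 to 769 CPM and untreated ones 629 to 693 CPM, with 4 markers called higher and 1 lower. Over 8 oligodendrocyte lineage markers the ranges were 686 to 1055 and 393 to 839.7 CPM, with 5 higher. Over 7 neuron markers they were 3160 to 4634 and 4137 to 5348 CPM, with 6 lower. Endothelial markers had 3 of 5 higher (88.7 to 149.8 against 57.5 to 137 CPM), and 2 of 8 endoderm markers were higher (99 to 154 against 84.1 to 117 CPM). The 4 macrophage markers summed to 3.96 to 8.22 against 1.32 to 4.85 CPM, with 3 of the 4 under 1 CPM, and no marker of these lists was at 0 in the venlafaxine group. The 6 pluripotency markers summed to 134 to 216 against 93.3 to 199.7 CPM, with 1 called higher and a median log2 fold change of 0.60. On day 7, where the enzymes rose, these markers had 79.7 to 196 CPM under venlafaxine and 81.4 to 98.7 CPM in untreated libraries, with a median of 0.69, 5 of 6 at an unadjusted p under 0.05 and none called. On that day 1 of 6 progenitor markers was higher and 1 each of the astrocyte, oligodendrocyte lineage and endothelial markers was lower, with endothelial sums of 156 to 179 against 202 to 232 CPM. Under fluoxetine on day 13, 1 of 7 astrocyte markers was called higher, 6 had an unadjusted p under 0.05, and no marker of the other lists was called. The astrocyte sums there were 633 to 745 CPM. The part of these cell types in the results above was not tested.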

How the data were processed

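Counts per gene were measured by polyA, strand-specific Illumina TruSeq RNA sequencing, per the labels' protocols, and the deposited table held raw counts as the authors made them, with no normalized unit. The tools named in the submitters' processing notes are STAR 2.6.0b, featureCounts 1.6.1, bcl2fastq 2.19.0.316 and FastQC 0.11.5, and the build is GRCm38.p6. No source used here gives the strand setting, the annotation release or how multi-mapping reads were counted. All 52550 rows named a gene. Genes overlapping a member were read from GENCODE vM21, and identical stretches of at least 95% identity and 100 bases were found with BLAST. Coordinates printed with sequences are those of the RefSeq windows, and the gene spans used to find overlaps are the deposited ones.

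The test was that of edgeR 4.0.16 (R 4.3.3) on these counts: a group-wise filterByExpr, TMM scaling, the quasi-likelihood F test with robust dispersions, Benjamini-Hochberg adjustment over all genes tested, calls at an adjusted p under 0.05. The 3 untreated groups, the 3 groups of a day, or, for a day difference, all 42 libraries of both later days were fitted together. Each edgeR standard error is the size of the log2 fold change over the square root of its F statistic. That of limma is the log2 fold change over its t statistic, and that of DESeq2 is the one it reports. CPM used 1 TMM scaling over all 49 libraries. Against the fitted values it placed the members 0.08 higher on the log2 scale for day 7 against day 0 and at most 0.01 apart elsewhere. DESeq2 1.42.0 and limma 3.58.1 (voom) were alternatives, and the script was tested on simulated counts. The labels do not say if replicates were independent differentiations, so p-values measure the spread between samples, which may be technical. The labels do not say that a replicate number marks a shared culture, so numbers were not used as a block in the main fit. Samples of the same number mostly did not deviate together, with an exception on day 13 given below.

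The 30 members and all lists were chosen with earlier results of these data known. Full values are given for members called in a drug comparison and for the 4 largest rises and falls of each untreated step, and up to 3 genes with the smallest p of each other list are named, with further ones where a limit or a list's makeup called for it.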

Additional observations from a re-analysis of the deposited data

Results flagged for a closer look

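In 210 sets of 7 libraries, 1 per member and group, 10 held a library far from the other 6, about as many as chance gives at 1 in 20. Soat1 accounted for 3: untreated day 13 replicate 4 had 101 CPM (others 75.2 to 81.9), fluoxetine day 13 replicate 1 had 97.9 CPM (80.4 to 87.7) and venlafaxine day 7 replicate 2 had 151 CPM (133 to 140). Rnf145 had 206 CPM in untreated day 7 replicate 7 (others 216 to 224) and 173 CPM in venlafaxine day 13 replicate 7 (180.2 to 185). Fluoxetine day 7 replicate 2 stood apart in opposite directions for 2 genes that SREBP2 drives: it had the lowest Sqle, 175 CPM (others 209.7 to 233), and the highest Insig1, 236 CPM (others 182 to 204). The remaining 3 were Acat2 at 220.2 CPM in venlafaxine day 7 replicate 1 (179 to 196), Insig2 at 36.9 CPM in untreated day 13 replicate 7 (41.3 to 44.6) and Scap at 93 CPM in fluoxetine day 13 replicate 5 (102 to 107).

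A drug's effect differed between day 13 and day 7 in 15 tests of the difference itself (log2, day 13 minus day 7, edgeR, adjusted p under 0.05). For fluoxetine this was Rnf145 at 0.31. For venlafaxine it was higher on day 13 for Soat1 at 0.40 and Rnf145 at 0.30. It was lower on day 13 for Cyp51 at -0.52, Sc5d at -0.49, Hmgcs1 at -0.39, Fdft1 at -0.37, Tm7sf2 at -0.37, Lss at -0.35, Msmo1 at -0.32, Sqle at -0.31, Nsdhl at -0.31, Pmvk at -0.28, Insig1 at -0.27 and Acat2 at -0.23.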

How the results depend on the processing

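The untreated time course and the venlafaxine result on day 7 moved little. Venlafaxine raised 8 to 12 members on day 7 over 10 alternatives, and its effect was lower on day 13 than on day 7 for 11 to 13 members over 9. Of the called members' values under the alternatives, 897 stayed past the threshold, 50 did not and none changed sign. 24 of these 50 were in fluoxetine against venlafaxine on day 13 and 17 in venlafaxine against untreated on day 13. Without a count filter more genes enter the adjustment. Then fluoxetine against venlafaxine on day 13 had 4 members higher and 1 lower (889 genes), venlafaxine on day 13 had 2 and 3 (2022 genes), fluoxetine on day 13 called 29 genes, and the day differences called 4 (fluoxetine) and 1186 (venlafaxine). A filter of 1 CPM in 7 libraries gave 45 genes for fluoxetine on day 13 and 1 member (Pmvk) lower in the fluoxetine day difference. DESeq2 called 1 member higher for fluoxetine on day 7 (57 genes) and on day 13 (423 genes), 1 lower in fluoxetine against venlafaxine on day 7 (112 genes) and 3 lower in the fluoxetine day difference (181 genes). DESeq2 size factors in edgeR gave 5 genes there. With limma 1 gene was called for fluoxetine on day 13 and 1 member lower in the fluoxetine day difference. A fit of all 49 libraries gave 1 member higher for fluoxetine on day 7 (18 genes), 1 lower against venlafaxine on day 7 and 1 on day 13 (3467 genes), 575 genes for fluoxetine on day 13, and 83 genes with 1 member lower for the fluoxetine day difference. The groups of a contrast alone gave 14 genes for fluoxetine and 8 for fluoxetine against venlafaxine on day 7, and 2301 for venlafaxine on day 13. The cause of these shifts was not tested.

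With the replicate block venlafaxine had 2 members higher and 1 lower on day 13 (282 genes) and 290 genes on day 7. Fluoxetine against venlafaxine had 4 members higher and 0 lower on day 13 (176 genes) and 8 genes on day 7. Fluoxetine had 1 member higher on day 7, 0 genes on day 13 and 10 in its day difference. Replicate numbers gave little sign of pairing: correlations of same-numbered libraries ran from -0.458 to 0.238, and at most 1 library of a comparison correlated best with its own number. In fluoxetine against venlafaxine on day 13, though, 3 of 6 same-numbered pairs correlated above 0.1. Without the 6 libraries farthest from their group means, fluoxetine against venlafaxine had 0 members higher and 1 lower on day 13 (236 genes) and 14 genes on day 7, and fluoxetine had 5 genes on day 7, 58 on day 13 and 5 in its day difference. The remaining alternatives were chosen after seeing the data. Without untreated day 7 replicate 7, fluoxetine had 2 members higher on day 7 and 7 genes in its day difference. Without fluoxetine day 7 replicate 2 that difference had 3 genes. Without fluoxetine day 13 replicates 7 and 8, fluoxetine had 0 genes on day 13 and 9 in its day difference, and against venlafaxine 887 genes with 1 member lower. Depth limits Nr1h3, Abcg1, Mylip and Fdps most, which had the lowest counts.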
